A study of Homo sapiens with 2 samples.

Results

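The cells described here were those with a high level of ANKRD1 among the cells of the pooled run that carried the EGFR-rich, NKX2-1-negative profile and high levels of 4 secreted, matrix or surface genes. They were chosen by measured values in single barcodes. Barcodes needed 1000 or more genes detected and a mitochondrial share of no more than 20% of their UMIs (unique molecular identifiers, each counting 1 captured RNA molecule). Each cell's UMIs were scaled to a total of 1000000 (CPM), and the cell then had to hold EGFR at 150 CPM or more, no UMI of NKX2-1, the sum of IGFBP3, FN1, HLA-B and CCDC80 at 800 CPM or more, and ANKRD1 at 300 CPM or more. Of 8748 barcodes, 8540 met the limits on genes and mitochondria, 4278 also those on EGFR and NKX2-1, and 2612 the limit on the 4-gene sum, a set called the gate. The ANKRD1-high cells were 183 of these 2612, or 7.01% of the gate and 2.14% of all cells within limits. They were compared with the 2218 ANKRD1-low cells of the same gate, which held ANKRD1 below 100 CPM, while 211 intermediate cells lay between.

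The run combined 5 hashed populations in 1 gene expression library. PC9 is a lung adenocarcinoma line with an activating EGFR deletion, and NCI-H358 is a second lung adenocarcinoma line. Untreated cells of both lines were pooled with PC9 cells kept for 4 or 11 days in 150 nM osimertinib, an EGFR inhibitor, and with NCI-H358 cells kept for 8 days in 500 nM sotorasib, drugs under which drug-tolerant persister (DTP) cells survive. The matrix analysed here holds no hashtag counts, so no cell was assigned to a line, a drug or a day, and whether the ANKRD1-high cells were persisters could not be read from the labels. All cells came from 1 library, so there was no replicate, no test was run, and the intervals given below cover counting error only.

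ANKRD1 encodes a nuclear and sarcomeric ankyrin repeat protein first known from heart muscle. Outside muscle it is a standard readout of YAP and TAZ, the coactivators that the Hippo kinases hold out of the nucleus and that act on DNA through TEAD factors. Actin assembly and cell spreading raise YAP activity and, through the MRTF coactivators, that of SRF, and the 2 programmes share many cytoskeletal and matrix targets. CCN1 and CCN2, secreted matricellular proteins, are the other usual readouts of YAP.

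The gene lies at chr10:90912096-90921087 on the minus strand (hg38, GENCODE 44). ANKRD1 was high in these cells by the rule, and CCN2 was among the genes found higher. Their promoters are shown because both hold the TEAD core motif GGAATG, which is set in capitals. Each is the 250 bases before the RefSeq start site (GRCh38.p14), at chr10:90921088-90921337 and chr6:131951373-131951622, both on the minus strand.
ANKRD1: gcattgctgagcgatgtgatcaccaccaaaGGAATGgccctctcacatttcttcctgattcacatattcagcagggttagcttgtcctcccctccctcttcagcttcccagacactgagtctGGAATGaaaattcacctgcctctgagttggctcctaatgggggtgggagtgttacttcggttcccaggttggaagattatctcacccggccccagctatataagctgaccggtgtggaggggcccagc
CCN2: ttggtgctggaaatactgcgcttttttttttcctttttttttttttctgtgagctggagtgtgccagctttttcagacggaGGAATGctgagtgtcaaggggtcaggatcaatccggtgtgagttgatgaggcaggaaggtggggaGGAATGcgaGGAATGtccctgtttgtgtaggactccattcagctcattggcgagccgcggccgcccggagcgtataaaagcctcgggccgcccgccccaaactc
GGAATG occurred 2 times for ANKRD1, at 220 and 128 bases before the start (counted to the first base of the motif), and 3 times for CCN2, at 169, 104 and 95 bases. Searched on both strands in the same window, GGAATG was found for 14.3% of 27305 RefSeq genes with 35116 promoter entries. A gene was counted if any of its entries held the motif, here and below, so genes with more entries could match more easily. Among the genes compared below, it was found in 13.0% of the 8512 genes with a promoter entry, in 23 of 83 genes that were 2-fold or more higher in ANKRD1-high cells (27.7%) and in 1 of 25 that were 2-fold or more lower (4.00%). The AP-1 motif TGANTCA gave 5.91%, 12.05% and 12% of the same 3 groups, and the CArG box, the SRF motif, 1.48%, 9.64% and 8.00%. The ANKRD1 sequence above also held 1 TGANTCA match, left in small letters, and the CCN2 sequence none. Neither sequence held a CArG box. These are matches of letters only and say nothing of binding in these cells.

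The members differed widely in ANKRD1 itself. The lowest held 301.1 CPM, the median 687.9 CPM and the highest 5363 CPM, and the 10th and 90th percentiles were 332.2 and 1773 CPM. Behind these values stood 3 to 511 ANKRD1 UMIs a cell with a median of 32, and 12 cells had fewer than 10. The limit did not fall in a gap, since 30 cells held 250 to below 300 CPM and 24 held 300 to below 350 CPM. The cell just inside had 10 ANKRD1 UMIs and that just outside, at 298.1 CPM, had 4. Summed over cells, ANKRD1 reached 1129 CPM (95% Poisson interval 1108 to 1151) in ANKRD1-high cells and 10.1 CPM (9.37 to 10.8) in ANKRD1-low cells, of which 1787 had no ANKRD1 UMI. As background, it was 9.54 CPM in the 1666 cells that met the EGFR and NKX2-1 limits but not the 4-gene limit, and 5.99 CPM in the 2662 cells with an NKX2-1 UMI and EGFR below 150 CPM. These levels follow from the rule and are given as description.

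**Figure D1:**
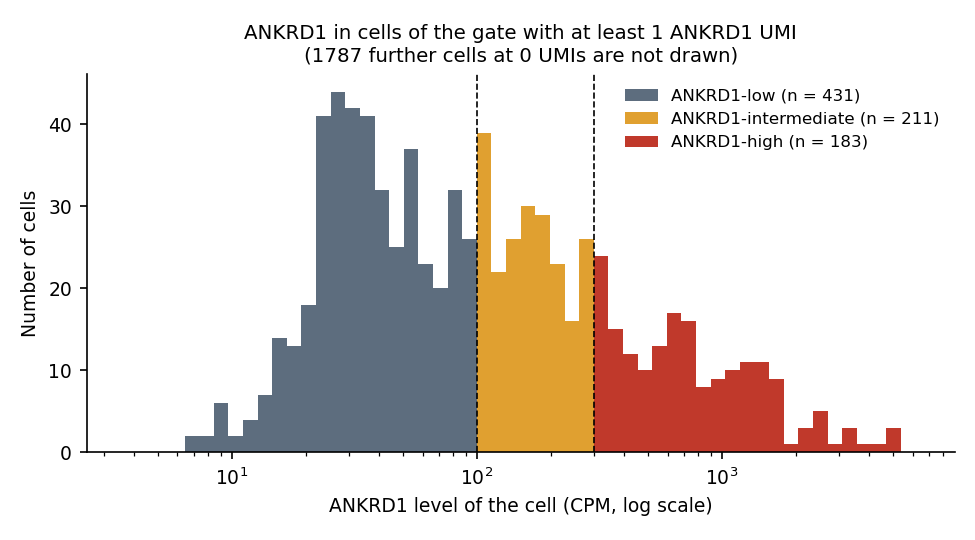
Number of cells of the gate (vertical axis) by ANKRD1 level in CPM (horizontal axis, log scale) for cells with at least 1 ANKRD1 UMI, coloured by the ANKRD1-low, intermediate and ANKRD1-high sets. The dashed lines mark the limits at 100 and 300 CPM, and the counts decline across both without a gap.

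The other genes of the rule are described in the same way. FN1, fibronectin, had a median of 1384 CPM over ANKRD1-high cells against 314.0 CPM over ANKRD1-low cells, although 5 members had none. CCDC80, a secreted matrix protein, had medians of 1106 and 807.4 CPM, and EGFR 408.8 and 365.9 CPM. HLA-B, a presenting molecule of MHC class I, had 323.7 and 279.9 CPM, while IGFBP3, which binds insulin-like growth factors and stands in the list of YAP targets, had the lower median in ANKRD1-high cells, at 1172 against 1500.4 CPM. The median 4-gene sum was 4892 CPM in ANKRD1-high and 3568 CPM in ANKRD1-low cells.

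The 2 sets differed in depth and quality, and these values stand beside every result below. The median was 46672 UMIs and 7058 genes in ANKRD1-high cells, and 31651.5 UMIs and 5949 genes in ANKRD1-low cells. The median mitochondrial share was 2.66% and 3.49%. Scrublet called 6 of 183 ANKRD1-high cells (3.28%) and 163 of 2218 ANKRD1-low cells (7.35%) doublets. Of 13 mesenchymal cell markers, 10 were below 1 CPM in ANKRD1-high cells, among them SPARC, COL1A2, COL3A1, DCN, PDGFRA, PDGFRB, THY1 and ACTA2. The cells' summed level of the 13 ran from 0 (10th percentile) to 235.8 CPM (90th) in ANKRD1-high and from 0 to 75.5 CPM in ANKRD1-low cells. The 3 markers at 5 CPM or more in either set all had log2 ratios above 0, with a median of 0.79 (0.01 to 1.66 over the alternatives). TAGLN was the 1 called. COL1A1 stood at 12.5 and 5.13 CPM, with a UMI in 60 of 183 members. LUM stood at 5.72 and 4.96 CPM, with 45.3% of its UMIs in 1 cell. Of 11 further markers of the NKX2-1-positive cells, SFTA3, CEACAM5, MUC15 and MAF were below 1 CPM in ANKRD1-high cells, and FOXA2 and CYP1A1 stood at 1.19 and 2.70 CPM. The list was not particular to those cells, since CEACAM6 stood at 166 CPM in ANKRD1-high and 149 CPM in NKX2-1-positive cells, and CDA at 441 and 103 CPM. FGFBP1 stood at 12.5 CPM in ANKRD1-high and 91.3 CPM in NKX2-1-positive cells. SPANXB1 (32.9 CPM in ANKRD1-high and 8.12 CPM in ANKRD1-low cells) and SPANXC, cancer-testis genes with close copies, were called higher, with 68.5% of the SPANXB1 UMIs in 1 cell.

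Across the transcriptome the ANKRD1-high cells stood apart from the ANKRD1-low cells in a limited number of genes. Ratios were taken of summed UMIs as log2 of (CPM + 5), which understates the change of low genes. Among 10781 genes at 5 CPM or more in either set, without the 7 genes of the rule, 111 (1.03%) were 2-fold or more higher and 41 (0.38%) 2-fold or more lower. These 2 shares stand beside every count of list members at 2-fold or more below. The median log2 ratio over all genes was 0.05, and the 5th and 95th percentiles were -0.39 and 0.51. Both counts moved with the cells compared. Against ANKRD1-low cells with at least 1 ANKRD1 UMI, 61 genes were higher and 17 lower, and within cycling cells of both sets 70 were higher and 7 lower. Scaled to a total that left out mitochondrial and ribosomal protein genes, 111 were higher and 71 lower.

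MYL9, IL32 and NEXN had the highest ratios of the genes named. MYL9, the regulatory light chain of smooth muscle and non-muscle myosin, stood at 212 CPM (203 to 221) in ANKRD1-high and 35.8 CPM (34.5 to 37.1) in ANKRD1-low cells, a log2 ratio of 2.41. Its median over ANKRD1-high cells was 73.7 CPM, the 90th percentile 546.1 CPM and the highest cell 1751 CPM, while the median ANKRD1-low cell had 0. The sets overlapped, since 13.4% of ANKRD1-low cells lay above the ANKRD1-high median. With every cell thinned to 10000 UMIs, 52.5% (44.95 to 59.9) of 181 ANKRD1-high and 17.5% (15.9 to 19.2) of 2187 ANKRD1-low cells had a MYL9 UMI, against 1.03% of the cells below the 4-gene limit and 10.0% of the NKX2-1-positive cells. Without thinning the first 2 shares were 71.0% and 31.3%. NEXN, nexilin, an actin filament binding protein, stood at 110 and 22.5 CPM (log2 ratio 2.06). TAGLN, transgelin, stood at 86.3 and 24.0 CPM (1.66) but was carried by few cells, with 41.3% of its UMIs in 5 members and a median of 8.16 CPM, and its ratio was 0.63 against ANKRD1-low cells with at least 1 ANKRD1 UMI and 2.30 against those with none.

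The SRF and MRTF target list had the highest median of the lists with more than 3 measured genes. Of its 21 measured genes, 8 (MYL9, TAGLN, ACTG2, ACTN1, TGFB1I1, VCL, CNN1 and CALD1) were 2-fold or more higher and none lower, where 1.03% of all genes were higher. The list's median log2 ratio was 0.76 beside 0.05 for all genes, and 19 of the 21 were above 0. ACTN1, alpha-actinin, which crosslinks actin filaments, stood at 649 CPM (632 to 665) against 278 CPM (274 to 281), and only 7.67% of ANKRD1-low cells lay above the ANKRD1-high median of 560.7 CPM. ACTG2, a smooth muscle actin, was called on 106 UMIs, 82.1% of them in 5 cells. SRF itself stood at 30.1 and 20.5 CPM (0.46), ACTG1, a cytoplasmic actin, at 1194 and 1088 CPM (0.13), and FHL2, a LIM protein known as an SRF target, at 135 and 150 CPM (-0.15).

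The YAP and TEAD targets differed widely from one another. CCN1 stood at 283 CPM (273 to 294) in ANKRD1-high and 90.2 CPM (88.1 to 92.3) in ANKRD1-low cells, a log2 ratio of 1.60. It was the most evenly spread of the 15 genes named as highest, with a 10th percentile of 88.6 CPM over ANKRD1-high cells and 7.30% of ANKRD1-low cells above their median of 251.4 CPM. Thinned, 90.1% (84.7 to 94.0) of ANKRD1-high and 47.3% (45.2 to 49.4) of ANKRD1-low cells had a CCN1 UMI, against 31.9% below the 4-gene limit and 43.5% of the NKX2-1-positive cells. CCN2 was low in both, at 15.3 CPM (12.9 to 18.1) and 1.53 CPM (1.28 to 1.83), and 58.5% of its 142 UMIs in ANKRD1-high cells came from 5 of the 183. TGFB2, a TGF-beta ligand, stood at 65.0 and 23.6 CPM (1.29), and GADD45A, a growth arrest and DNA damage gene, at 438 and 196 CPM (1.14).

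These 4 were the only YAP and TEAD targets at 2-fold or more among 22 measured, and none was 2-fold lower. Over all genes 1.03% were higher and 0.38% lower. The list's median log2 ratio was 0.20, with 15 of 22 above 0. F3, tissue factor, stood at 393 and 274 CPM (0.51), the receptor kinase AXL at 46.5 and 36.8 CPM (0.30, and -0.06 to 0.62 over the alternatives) and AMOTL2, an angiomotin family member, at 84.5 and 71.4 CPM (0.23). MYOF, CRIM1, NT5E and PTPN14 lay between -0.07 and 0.05. NUAK2 had 0.81 and ASAP1 0.48, while AMOTL1 had -0.35 and BIRC5, also a cycling marker, -0.48. Against ANKRD1-low cells with at least 1 ANKRD1 UMI, 2 targets remained at 2-fold or more.

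The factors of the Hippo pathway were close in level between the sets. YAP1 stood at 54.2 CPM (49.5 to 59.1) in ANKRD1-high and 56.7 CPM (55.1 to 58.4) in ANKRD1-low cells, and TEAD1 at 150 and 156 CPM. WWTR1, which encodes TAZ, had a log2 ratio of 0.15, TEAD2 0.39, TEAD3 0.09 and TEAD4 -0.06. Of 20 measured genes 1 was 2-fold higher, where 1.03% of all genes were. It was FRMD6, a FERM domain protein placed upstream in the Hippo pathway, at 154 and 53.7 CPM (1.44). NF2, merlin, stood at 62.7 and 31.02 CPM (0.91) and AMOT, angiomotin, at 13.7 and 26.0 CPM (-0.73). RNA levels do not show where YAP or TAZ protein was in these cells.

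Several genes of TGF-beta and activin signalling were also higher. INHBA, the subunit of activin A, stood at 532 CPM (518 to 547) in ANKRD1-high and 131 CPM (129 to 134) in ANKRD1-low cells (log2 ratio 1.98), with cell medians of 379.2 and 31.2 CPM. THBS1, thrombospondin 1, which activates latent TGF-beta, stood at 194 and 49.8 CPM (1.86), and the receptor TGFBR1 at 90.01 and 31.5 CPM (1.38). With these and TGFB2 among them, 5 of 21 measured genes were 2-fold higher and none lower, where 1.03% of all genes were higher. The list's median was 0.37, with 18 of 21 above 0. PMEPA1, a feedback target, stood at 882 and 493 CPM (0.83), while SMAD3 had 0.37, TGFBR2 0.21 and ID1, a target of BMP signalling, -0.55.

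Most integrin and adhesion genes lay above 0, by differing amounts. ITGA2, the collagen-binding integrin subunit, stood at 329 CPM (317 to 340) and 89.7 CPM (87.7 to 91.8), a log2 ratio of 1.82. ITGAV (75.7 and 24.3 CPM) and ITGB6 (147 and 62.9 CPM), which pair in an integrin that activates TGF-beta, had 1.46 and 1.16. These 3 were the calls among 20 integrin and adhesion genes, where 1.03% of all genes were higher. The list median was 0.27 (0.19 to 0.40 over the alternatives), with 18 of the 20 above 0. ITGB1, ITGA5, ITGB8 and ITGB5 lay between 0.64 and 0.72, and ITGA6, a laminin-binding subunit, at -0.16. Among 23 matrix genes 3 were called, THBS1 and TNC among them, and the median was 0.20 (0.03 without cycling cells). TNC, tenascin C, rested on 96 UMIs, 39.6% of them in 5 cells, and its ratio of 1.07 was 0.15 within cycling cells. TIMP3, an inhibitor of matrix enzymes, stood at 397 and 589 CPM (-0.56).

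**Figure D2:**
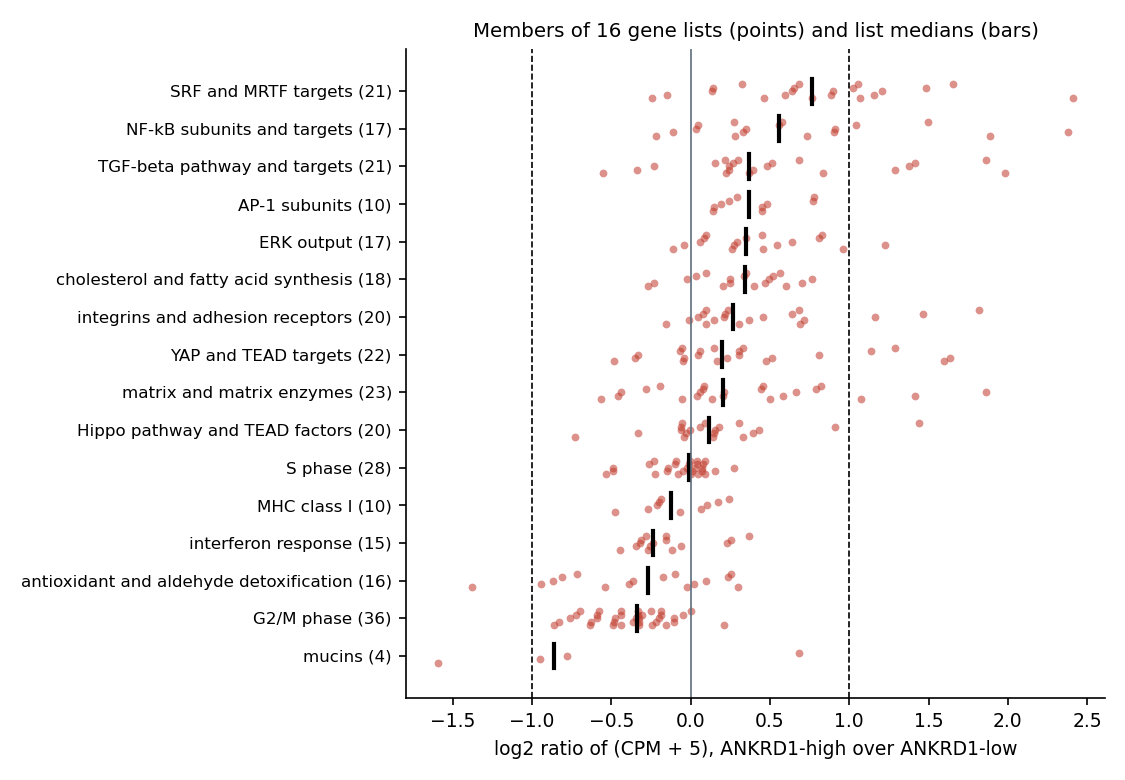
Each point is 1 measured gene of a list (number of genes in brackets), placed by its log2 ratio of (CPM + 5), ANKRD1-high over ANKRD1-low, and the black bars are list medians. The dashed lines mark 2-fold, and SRF and MRTF targets had the highest median shown, 0.76, and mucins, with 4 genes, the lowest, -0.86, which was -0.09 within cycling cells.

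Epithelial genes showed no common direction. Among 12 genes of epithelial to mesenchymal transition, CLDN1, a tight junction claudin, at 206 and 51.3 CPM (1.91), and VIM, vimentin, at 34.8 and 11.4 CPM (1.28), were called, and 52.2% of the VIM UMIs came from 5 cells. The list median was 0.04, and -0.02 with TMM factors. CDH1, E-cadherin, stood at 96.4 and 69.9 CPM (0.44) and EPCAM at 216 and 210 CPM (0.04). The keratins were split, with KRT81 at 581 and 199 CPM (1.52) and KRT17 at 39.4 and 16.2 CPM (1.07), KRT8 at -0.41 and KRT18 at -0.41, and KRT16 at 61.5 and 117 CPM (-0.87). Of the KRT17 UMIs 63.3% lay in 5 cells, and its ratio was -0.14 in cells of 20000 to 60000 UMIs. KRT81, TUBA1A and ACTG2 have close copies elsewhere in the genome, so their reads may have been divided between copies.

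Inflammatory genes were divided by pathway. IL32, a cytokine gene induced by NF-kB, had the second highest ratio of the genes named, at 702 CPM (685 to 719) and 131 CPM (129 to 134), a log2 ratio of 2.38. Its median was 355.6 CPM over ANKRD1-high and 39.8 CPM over ANKRD1-low cells, and 9.83% of ANKRD1-low cells lay above the former. Thinned, 76.2% (69.4 to 82.2) and 43.7% (41.6 to 45.8) of cells had an IL32 UMI, against 2.90% below the 4-gene limit. With CXCL8 (19.6 and 1.65 CPM), TNFAIP3 (132 and 43.5 CPM) and IL6 (19.5 and 6.90 CPM), 4 of 17 NF-kB subunits and targets were 2-fold higher. The share over all genes was 1.03%. The list's median was 0.56 (0.32 without cycling cells). CXCL8 rested on few cells, with 69.2% of its 182 UMIs in 5. NFKBIA, the inhibitor that NF-kB induces, lay at 0.05 and TNFAIP2 at -0.22.

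The interferon response genes did not share this direction. Over the 15 measured, the median log2 ratio was -0.24, with 3 above 0 and none called, and for MHC class I it was -0.13. GBP1, a guanylate-binding protein induced by interferon and by inflammatory cytokines, was among the 15 highest even so, at 99.3 and 23.8 CPM (1.86). Both medians changed sign within cycling cells, to 0.04 and 0.23, and against ANKRD1-low cells with at least 1 ANKRD1 UMI, to 0.08 and 0.21.

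Of 20 growth factor receptors and ligands, PDGFB and HBEGF were called, and the median was 0.22 (-0.06 to 0.32 over the alternatives). EDN1, endothelin 1, stood at 201 CPM (192 to 211) and 50.3 CPM (48.8 to 51.9), PDGFB at 425 and 119 CPM (1.79), and HBEGF, an EGFR ligand, at 31.7 and 10.4 CPM (1.26). HBEGF rested on 294 UMIs in 88 of 183 members, with 38.8% of them in 5 cells. CDKN1A, the p21 inhibitor of cyclin-dependent kinases, stood at 51.7 and 16.9 CPM (1.37). ERK output genes had a median of 0.35, which ran from 0.00 (against ANKRD1-low cells with at least 1 ANKRD1 UMI) to 0.64 over the alternatives, with IER3, an immediate early gene, called at 328 and 138 CPM (1.23). DUSP6, a phosphatase that follows ERK activity closely, was at 7.34 and 6.84 CPM in the 2 sets and at 48.0 CPM in the cells below the 4-gene limit. The 10 AP-1 genes all lay above 0, with none called, a median of 0.37 (0.20 to 0.57 over the alternatives), and ATF3 at 23.3 and 11.6 CPM (0.77).

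**Figure D3:**
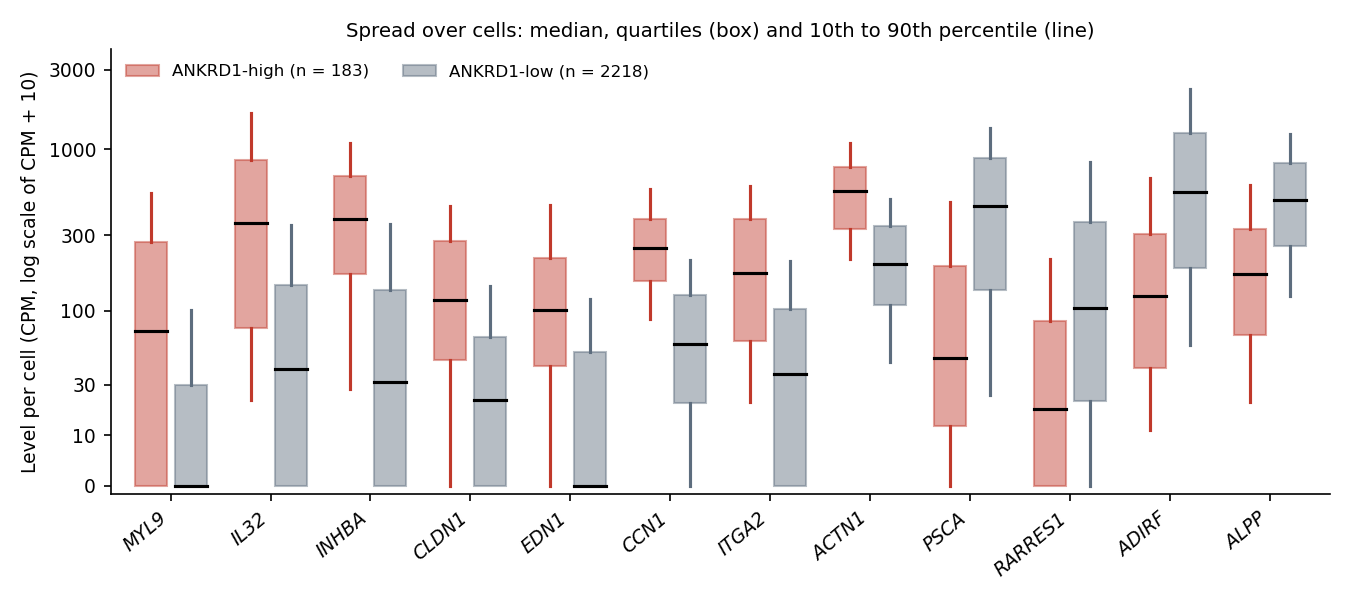
Level per cell in CPM (vertical axis, log scale of CPM + 10) of 12 genes in the 183 ANKRD1-high and 2218 ANKRD1-low cells, with the median as a bar, quartiles as a box and the 10th to 90th percentile as a line. The sets overlap for every gene, with 7.30% of ANKRD1-low cells above the ANKRD1-high median for CCN1 and 84.9% for PSCA.

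PSCA, RARRES1 and ADIRF had the lowest ratios of the genes named. PSCA, a GPI-anchored surface antigen, stood at 119 CPM (112 to 126) in ANKRD1-high and 487 CPM (482 to 492) in ANKRD1-low cells, a log2 ratio of -1.99, and 84.9% of ANKRD1-low cells lay above the ANKRD1-high median of 47.8 CPM. RARRES1, a retinoid-responsive gene, stood at 71.6 and 249 CPM (-1.73), ADIRF, an adipogenesis regulatory factor, at 252 and 787 CPM (-1.62), and MUC20, a membrane mucin, at 39.4 and 129 CPM (-1.59). The alkaline phosphatase ALPP, with a close copy in ALPG, stood at 203 and 526 CPM (-1.35), and the aldehyde dehydrogenase ALDH3A1 at 85.2 and 229 CPM (-1.38). Of 4 measured mucins 1 was called lower, with a median of -0.86 and MUC4 at 0.69. The mucin median was -1.20 in non-cycling cells, where 3 were called, and -0.09 in cycling cells, where none was. Among 16 antioxidant and aldehyde genes ALDH3A1 was the 1 called, the median was -0.27 (-0.45 to -0.04 over the alternatives), and AKR1B10, AKR1C1 and ALDH3A2 lay between -0.95 and -0.81. LCN2, lipocalin 2, stood at 502 and 866 CPM (-0.78, and -0.99 to -0.04 over the alternatives).

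The ratios of the lower group differed between cycling and non-cycling cells. Within non-cycling cells of both sets, the 15 genes named as lowest had log2 ratios from -2.29 to -1.26 and all 15 were called, whereas within cycling cells they ran from -1.26 to -0.16 and 1 was called. PSCA stood at 680 CPM in non-cycling and 218 CPM in cycling ANKRD1-low cells, against 135 and 88.2 CPM in the same classes of ANKRD1-high cells. The 15 genes named as highest ran from 1.53 to 2.53 in non-cycling cells, where all 15 were called. In cycling cells they ran from 0.63 to 1.84, and 13 were called. Over all genes, 150 were higher and 106 lower of 10758 in non-cycling cells. In cycling cells 70 were higher and 7 lower of 10732. Both groups of 15 were chosen by the ratio over these same cells. Their direction within a class therefore follows largely from the choice and is no separate observation.

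Cycling was read from 6 genes (MKI67, TOP2A, CDK1, UBE2C, CENPF and BIRC5), with a cell called cycling at 3 or more of their UMIs after thinning to 10000. The share was 32.04% (25.3 to 39.4) of ANKRD1-high cells, 31.2% (29.3 to 33.2) of ANKRD1-low cells, 52.2% (45.2 to 59.1) of intermediate cells and 91.5% (90.1 to 92.8) of cells below the 4-gene limit. Between the first 2 the intervals overlapped. The 28 S phase genes had a median of -0.01 and the 36 G2/M genes one of -0.34, with PLK1 at 20.8 and 41.8 CPM (-0.86) and none called. Without the cycling cells of both sets the G2/M median was 0.11.

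Among the members, cycling and non-cycling cells differed in the genes described above. IL32 stood at 905 CPM in 123 non-cycling and 305 CPM in 58 cycling ANKRD1-high cells, MYL9 at 272 and 95.3 CPM, INHBA at 640 and 323 CPM, and ANKRD1 itself at 1275 and 845 CPM. TAGLN (80.5 and 98.2 CPM), ITGA2 (316 and 356 CPM) and CDKN1A (48.2 and 58.7 CPM) were not higher in the non-cycling members.

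Levels of the named genes were also listed by the level of ANKRD1. The gate was divided into bands at 0 UMIs (1787 cells), above 0 to below 100 CPM (431), 100 to below 300 (211), 300 to below 600 (76), 600 to below 1200 (58) and 1200 CPM or more (49). MYL9 stood at 32.2, 46.1, 53.4, 136, 185 and 328 CPM across them, and IL32 at 114, 179, 300, 468, 631 and 1050.1 CPM. CCN1 stood at 77.8, 126, 163, 232, 307 and 324 CPM. Of the 15 genes named as highest, 13 were higher at each of the 5 steps, the exceptions being TUBA1A and TAGLN. Of the 15 lowest, 9 were lower at each step and 14 at 4 or more, with PSCA at 567, 256, 217, 158, 126 and 65.2 CPM. These genes were chosen by the ratio of the bands at 300 CPM or more over those below 100 CPM. Their rise or fall between those sides therefore follows from the choice and is no separate observation. The order of bands within a side was not itself a criterion, but it is not independent of the choice. The ratio was of summed UMIs, in which the bands with most UMIs weigh most. The band at 0 UMIs held 1787 of the 2218 ANKRD1-low cells. How many of all genes show such an order was not computed.

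The cycling share was not ordered in the same way. It was 25.9% at 0 UMIs, 52.9% and 52.2% in the next 2 bands, then 45.3%, 29.8% and 14.3% at 300, 600 and 1200 CPM and above, and MKI67 stood at 75.8, 119, 113, 112, 53.6 and 42.6 CPM. Depth moved with the bands too, from a median of 30011 UMIs at 0 UMIs of ANKRD1 to 54259 UMIs in the highest band, and its part in the order was not tested. YAP1 stayed between 47.6 and 61.2 CPM in the 6 bands.

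**Figure D4:**
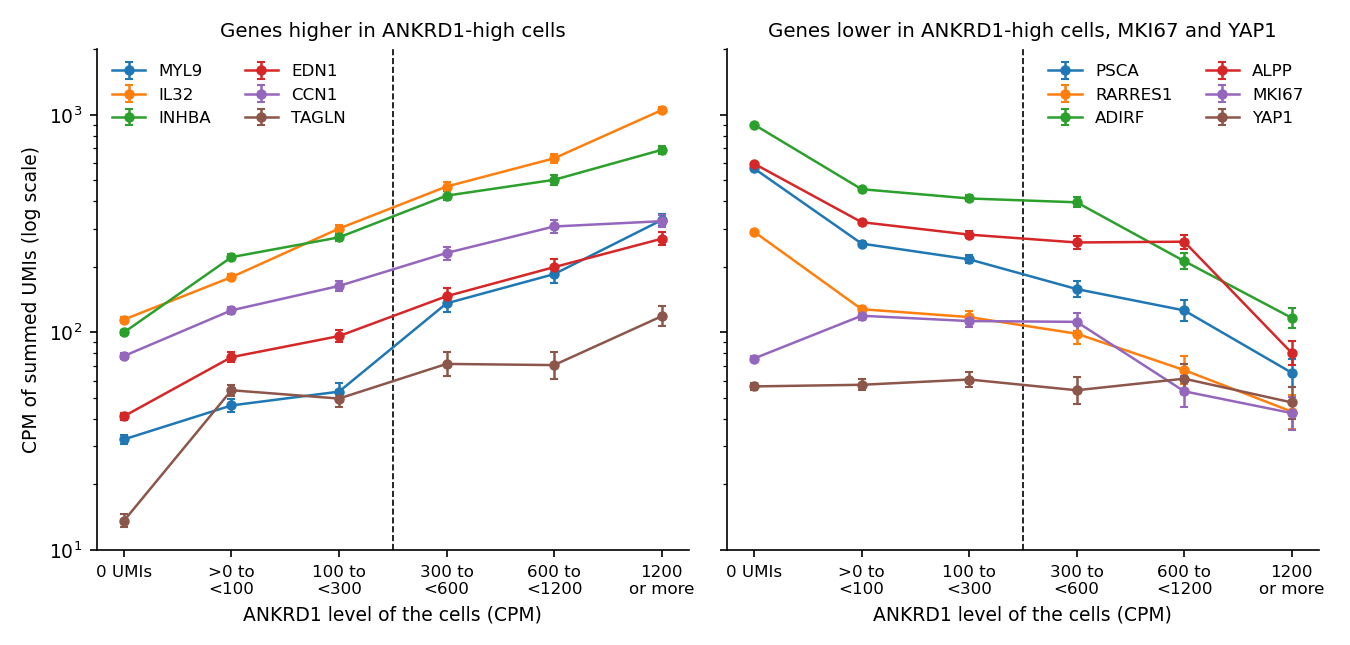
CPM of summed UMIs (vertical axis, log scale) of 12 genes in 6 bands of ANKRD1 level (horizontal axis), with exact 95% Poisson intervals as bars and a dashed line at 300 CPM, where the ANKRD1-high cells begin. MYL9 ran from 32.2 to 328 CPM and PSCA from 567 to 65.2 CPM, while MKI67 was highest in the bands between and YAP1 stayed between 47.6 and 61.2 CPM.

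The ANKRD1-high cells did not form a separate group when the genes of the rule were left out. In 30 principal components of 2000 variable genes, each cell's 15 nearest neighbours were listed. On average 35.5% of the neighbours of an ANKRD1-high cell were ANKRD1-high, against 11.8% for intermediate cells, 2.78% for ANKRD1-low cells and 7.02% of all cells used. Most neighbours were ANKRD1-high for 56 of 181 members, and none was for 25. The medians of the 2 sets were farthest apart on component 2, by 1.51 standard deviations of the ANKRD1-low cells, with INHBA, FILIP1L and GADD45A among the genes at the ANKRD1-high end and ADIRF, SNCG and PSCA at the other. Component 5, led by IL32, followed at 1.29.

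**Figure D5:**
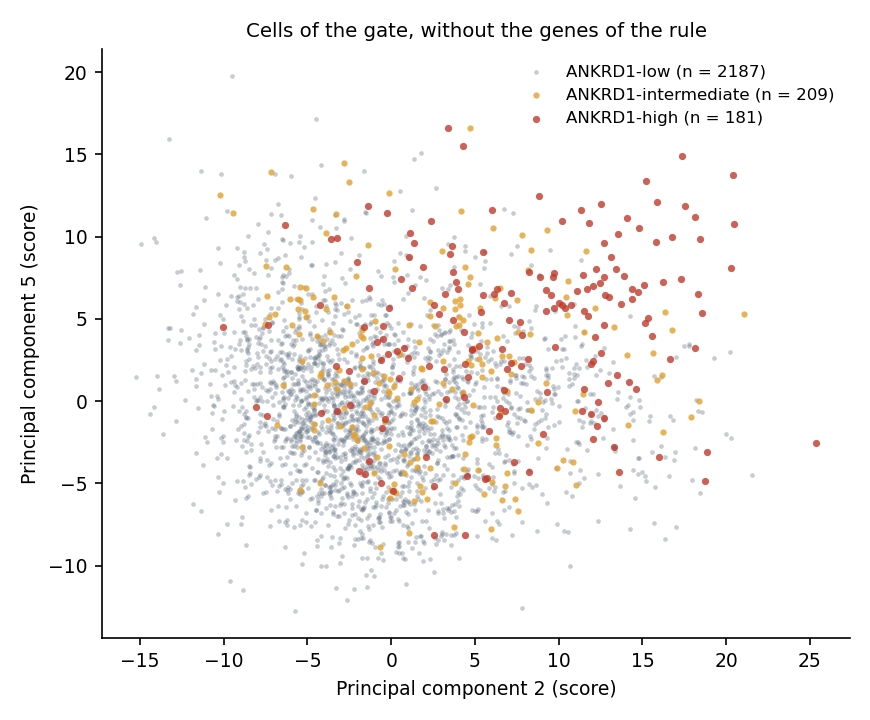
Scores of 2577 cells of the gate on principal components 2 and 5, computed without the 7 genes of the rule and coloured by set. The 181 ANKRD1-high cells lie mostly towards the upper right and overlap the 2187 ANKRD1-low cells.

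Beside the cells that met the same EGFR and NKX2-1 limits but not the 4-gene limit, of which 91.5% were cycling, both sets of the gate were higher in many of the same lists. The median log2 ratio over those cells was 1.31 for SRF and MRTF targets in ANKRD1-high and 0.67 in ANKRD1-low cells, 1.16 and 0.82 for YAP and TEAD targets, and 1.91 and 1.87 for MHC class I. The medians leave out the genes of the rule. The 4-gene sum holds HLA-B, of MHC class I, and IGFBP3, of the YAP list, so genes that vary with these can differ through the rule itself. ERK output genes were lower, at -0.57 and -0.98. ITGA2 at 246 CPM and KRT81 at 204 CPM were higher in the cells below the 4-gene limit than in ANKRD1-low cells, whereas MYL9 stood there at 1.27 CPM and GBP1 at 0.69 CPM.

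Alveolar type 1 and muscle genes had no common direction. HOPX, an alveolar type 1 and cardiac homeodomain gene, stood at 2.81 CPM (1.83 to 4.11) in ANKRD1-high and 6.46 CPM (5.92 to 7.04) in ANKRD1-low cells. Its log2 ratio was -0.55 (-0.97 to -0.19 over the alternatives). The ANKRD1-high level rested on 26 UMIs in 17 of 183 cells, with 46.2% of them in 5. Thinned, 4.42% (1.93 to 8.52) and 4.62% (3.78 to 5.58) of cells had a HOPX UMI, so no difference in that share was detectable at this depth. The 9 alveolar type 1 genes had a median of -0.08, which ran from -0.20 to 0.31 over the alternatives tried. Of 6 measured muscle and cardiac genes the median was 0.00 (-0.34 to 0.15 over the alternatives), and the 1 called, NPPB, a natriuretic peptide, had 69 UMIs that all came from 3 cells.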

How the data were processed

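Single-cell gene expression was measured in 1 pooled 10x 3′ library of 5 hashed populations. The deposited values were raw UMI counts that the authors made with Cell Ranger 7.1.0 on hg38, a build and tool named in the submitters' processing notes. The annotation and the barcode filter were not given in the sources used here. The deposited matrix held 36601 genes, 8748 barcodes and 361434462 UMIs, with 20 rows under a repeated symbol and no hashtag rows, so no hashtag was used. Limits on genes and mitochondrial share removed 208 barcodes.

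UMIs were summed over the cells of a set and scaled to CPM. Genes at 5 CPM or more in either set were compared by the log2 ratio of (CPM + 5), and 2-fold or more was called. Since 1 library held both sets, there was no test. Intervals are 95% exact Poisson intervals for sums and Clopper-Pearson intervals for shares, and cover counting error only. Shares were also taken after thinning each cell to 10000 UMIs, without shallower cells. Doublets were scored with Scrublet in Scanpy 1.11.5, which called 634 of 8540 cells (7.42%). They were kept, and left out in an alternative. Other alternatives changed the scaling (TMM factors from edgeR 4.0.16), the pseudocount, the filter and the limits on cells. The scripts were tested on simulated data.

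Genes named were the 15 highest and 15 lowest ratios at 50 CPM or more, without mitochondrial, ribosomal protein, clone-named and rule genes, up to 4 members of each list by size of ratio, and a set of fixed names. Some further list members were named for their roles after their values were seen. Some genes and their values are not reported here. The members and the lists were chosen with earlier results of these data known. Gene positions came from GENCODE 44 and promoter sequences from RefSeq on GRCh38.p14. Computation used Python 3.11.15, numpy 2.4.6, scipy 1.17.1, pandas 2.3.3 and scikit-learn 1.9.0.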

Additional observations from a re-analysis of the deposited data

How the results depend on the processing

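All values rest on 1 library, so none has a replicate check, and depth limits low genes such as CCN2 and HOPX. No paired analysis was possible because there was 1 library and no result came from a test. Over the alternatives tried the median log2 ratio stayed between 0.13 and 0.29 for YAP and TEAD targets and between 0.26 and 0.40 for TGF-beta genes. For SRF and MRTF targets (0.76) it was 0.69 with TMM factors, 0.68 with a total that left out mitochondrial and ribosomal protein genes, 0.68 without a filter, 0.90 with ANKRD1 at 500 CPM or more, 0.82 against cells with no ANKRD1 UMI, 0.81 in cells of 20000 to 60000 UMIs, 0.92 without cycling cells, 0.71 with the 4-gene sum at 1600 CPM or more and 0.72 without cells with SPARC or TAGLN at 100 CPM or more. For G2/M genes (-0.34) it was -0.11 with the mean of per-cell CPM, -0.76 with ANKRD1 at 500 CPM or more, -0.19 against cells with no ANKRD1 UMI, 0.11 without cycling cells, -0.20 at the higher 4-gene sum and -0.13 after thinning. The 111 genes higher became 187 with a pseudocount of 1 CPM. The 41 genes lower became 71 with that same total, 99 with a pseudocount of 1 CPM, 77 with ANKRD1 at 500 CPM or more, 71 against cells with no ANKRD1 UMI, 106 without cycling cells and 67 after thinning.

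Of 3 settings chosen after seeing the data, 2 gave the lowest counts. Within cycling cells 70 genes were higher and 7 lower, with medians of 0.65 for SRF and MRTF targets and -0.17 for G2/M genes. Against ANKRD1-low cells with at least 1 ANKRD1 UMI, 61 were higher, 57 of them among the 111, and 17 lower, 3 of them among the 41. There 2 YAP and TEAD targets were higher, and the medians were 0.62 for SRF and MRTF targets and -0.73 for G2/M genes. Called ratios changed sign for KRT17 (-0.14 in cells of 20000 to 60000 UMIs), NPPB (-0.12 without cells with SPARC or TAGLN at 100 CPM or more) and SPANXB1 (-0.85 within cycling cells). A limit of fewer than 3 UMIs over all 11 other markers of the NKX2-1-positive cells left 4 of the 183 cells, too few for the comparisons. That list includes CEACAM6 and CDA, both above 100 CPM in ANKRD1-high cells. The same limit over the 6 low ones (SFTA3, FOXA2, CEACAM5, MUC15, CYP1A1 and MAF), the third such setting, left 180 cells, with 112 genes higher and 39 lower. The cause of these shifts was not tested.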

Other observations

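Cholesterol and fatty acid synthesis genes had a median log2 ratio of 0.34 in ANKRD1-high over ANKRD1-low cells, with 15 of 18 above 0 and none called, and -0.05 to 0.58 over the alternatives. HMGCS1, the synthase of the mevalonate pathway, had 0.77 and MSMO1, a sterol oxidase, 0.70. The BCL2 family had a median of 0.15 over 13 genes (0.09 to 0.31) and D cyclins and CDK inhibitors 0.15 over 13 (0.04 to 0.32), with CDKN1A the 1 called. Medians of the lysosome and autophagy genes (0.05), complement and acute phase genes (-0.03, with RARRES1 called lower), ATF4 and unfolded protein response genes (-0.05), heat shock genes (0.07), glycolysis genes (0.00) and histone methyltransferases and demethylases (0.00) changed sign under at least 1 alternative.

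ANKRD1 at 300 CPM or more was also found outside the gate. Of 254 such cells within the limits on genes and mitochondria, 183 were in the gate. A further 33 had EGFR below 150 CPM and no NKX2-1 UMI, with MYL9 at 509 CPM and IL32 at 607 CPM in summed UMIs. In 9 cells EGFR was below 150 CPM with NKX2-1 above 0, and MYL9 stood at 811 CPM. In 24 cells both EGFR was at 150 CPM or more and NKX2-1 above 0, and their median depth of 69775 UMIs was above the 46672 UMIs of the gate's ANKRD1-high cells. The remaining 5 cells fell below the 4-gene limit.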
